A study of Mus musculus with 2 samples.

Results

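Mup-rich hepatocytes were liver cells with much messenger RNA of the major urinary proteins, and 59 of the 3937 barcodes kept in the series, all from the control library, met the definition. A barcode was kept with at least 500 unique molecular identifiers (UMIs, each a counted transcript), at least 200 genes and at most 20% of UMIs from mitochondrial genes. It was a hepatocyte when Alb, Apoa1, Apoa2, Apoc1, Ttr, Fabp1 and Trf together gave at least 2% of its UMIs, C1qa, C1qb and C1qc gave under 0.5%, and Mki67 and Top2a gave under 3 UMIs. A hepatocyte was Mup-rich when genes whose symbol is Mup and a number gave at least 1% of its UMIs, and Mup-poor otherwise, which left 541 Mup-poor hepatocytes. The cells were thus chosen by the measured shares of the Mup genes, the abundant hepatocyte genes, the complement C1q genes and the division genes, whose levels are given as a description.

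The libraries came from 2 mice, 1 per group, and no replicate exists. The GS-KO animal bore tumours, had the genotype Glul f/f (floxed Glul) and received AAV8-Cre, and the control animal also bore tumours and was Glul f/f but received AAV8-GFP, so both carried the floxed alleles and an AAV8 virus. Both livers were collected 7 weeks after the virus, and Glul stood at 145 CPM (UMIs of a gene per 1000000 UMIs) in GS-KO and 3456 CPM in control Mup-poor hepatocytes; whether the counted 3′ end lies in the deleted stretch is not given in the sources used here. The disease is β-catenin-mutant hepatocellular carcinoma, as given in the series title. Glul encodes glutamine synthetase (GS), the enzyme that makes glutamine from glutamate and ammonia, and AAV8 is a vector that reaches mainly hepatocytes. After collagenase digestion and a centrifugation, the cells left in suspension were enriched on magnetic beads for F4/80, a macrophage surface protein, and dead cells were removed. Hepatocytes were therefore the cells that came through a selection for another cell type, and shares of hepatocytes depend on that selection. The label of the assay is single cell, with single nucleus in 1 place, and which applied was not settled here. The labels state at least 7500 cells at 20000 reads per cell, and the matrices held 1366 GS-KO and 5074 control barcodes with 8805330 and 64770011 UMIs.

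Major urinary proteins are small secreted carriers of the lipocalin family that male mice make in the liver in large amounts, release into the blood and excrete in urine, where they bind pheromones. Their genes form a cluster of near-identical copies, and their transcription in the liver responds to pulses of growth hormone through STAT5, to androgen and to glucocorticoid. Along the liver lobule, hepatocytes near the portal vein carry urea cycle, gluconeogenic and many secretory genes, and hepatocytes near the central vein carry Glul, Cyp2e1 and other genes that β-catenin switches on.

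All 22 Mup genes in the matrix lay in 2.19 Mb of chromosome 4, from 59956804 to 62150863 on GRCm38. The genes that carried most of the RNA sat in its distal portion, with Mup3 at chr4:62083476-62087342, Mup20 at chr4:62050234-62054158 and Mup17 at chr4:61591929-61595871, all on the minus strand. The 250 bases before the RefSeq start of Mup3, Mup17, Mup9 and Mup21, which are 4 of the most counted members, are shown so that the copies can be compared base by base. The sequences are RefSeq's on GRCm38.p6, read 5′ to 3′ on the minus strand, at chr4:62087318-62087567, chr4:61595833-61596082, chr4:60421953-60422202 and chr4:62150842-62151091 in the order of the lines. Capitals mark the letters TATATAA, a run like a TATA box that was chosen after the sequences were seen.
Mup3: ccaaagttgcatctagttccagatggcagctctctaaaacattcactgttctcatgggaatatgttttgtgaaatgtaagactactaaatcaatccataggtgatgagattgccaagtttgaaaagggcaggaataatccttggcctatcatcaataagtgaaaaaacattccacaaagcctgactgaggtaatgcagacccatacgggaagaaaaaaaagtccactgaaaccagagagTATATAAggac
Mup17: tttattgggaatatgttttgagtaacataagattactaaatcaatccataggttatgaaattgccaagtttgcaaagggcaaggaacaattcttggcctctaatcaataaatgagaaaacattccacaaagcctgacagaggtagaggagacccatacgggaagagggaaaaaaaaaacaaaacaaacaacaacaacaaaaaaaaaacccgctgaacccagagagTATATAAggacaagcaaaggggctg
Mup9: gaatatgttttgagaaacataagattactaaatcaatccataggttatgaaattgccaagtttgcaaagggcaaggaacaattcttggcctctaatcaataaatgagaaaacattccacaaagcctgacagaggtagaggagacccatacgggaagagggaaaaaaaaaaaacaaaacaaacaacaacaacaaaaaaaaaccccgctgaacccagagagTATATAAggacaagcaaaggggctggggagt
Mup21: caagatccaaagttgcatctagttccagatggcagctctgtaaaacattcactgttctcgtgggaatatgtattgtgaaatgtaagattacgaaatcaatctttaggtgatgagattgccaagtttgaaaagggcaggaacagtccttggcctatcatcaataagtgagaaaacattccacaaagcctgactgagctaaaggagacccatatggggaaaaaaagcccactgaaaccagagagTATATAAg
In local alignments, Mup17 and Mup9 were 98.4% identical over 244 columns, and Mup3 and Mup21 were 92.7% identical over 247. Mup3 matched Mup17 at 87.1% over 170 columns and Mup9 at 87.4% over 167. The promoter of Mup3 was thus closer to that of its neighbour Mup21 than to those of Mup17 and Mup9. A RefSeq promoter was held for 14 of the 22 genes. TATATAA, searched on both strands, was in 11 of the 14 (78.6%) and in 998 of all 32851 promoters of the same length (3.04%). It began 11, 25, 31 and 8 bases before the RefSeq start of Mup3, Mup17, Mup9 and Mup21. The gene coordinates given before the sequences are GENCODE's, which has the same start for Mup9 only. By GENCODE, Mup3, Mup17 and Mup21 start at 62087342, 61595871 and 62150863, inside the stretches shown, so TATATAA lies within these genes. The letters TTCNNNGAA, the core of a STAT site, were in 0 of the 14 and in 2306 of all promoters (7.02%).

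Mup-rich cells made up 0 of 61 hepatocytes in the GS-KO library, which by a floor of 3 counts allows a share of up to 4.92% (exact upper bound 5.87%), and 59 of 539 in the control library, which is 10.9% (95% interval 8.44 to 13.9). Intervals of shares are exact binomial (Clopper-Pearson), those of levels exact Poisson, and all cover counting error only. The GS-KO hepatocyte nearest to the limit had 18 Mup UMIs of 1837 (0.980%). In the control library, the cells just inside had 32 of 3200 (1.00%) and 12 of 1190 (1.01%), and those just outside had 306 of 30891 (0.991%) and 740 of 76624 (0.966%). The measured share ran on across the limit, with 30 members between 1 and 2%, 29 from 2%, and 38 control Mup-poor cells between 0.5 and 1%. Whether the members form a separate population was not tested. In the GS-KO library 5 cells lay between 0.5 and 1%. Only 64 control barcodes of those kept reached 1% Mup RNA, and the 5 that were not members failed on C1q (2) or on division genes (3). A further 1 GS-KO and 15 control barcodes met every condition but the mitochondrial limit, beside 51 GS-KO and 125 control barcodes of the Mup-poor kind.

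**Figure D1:**
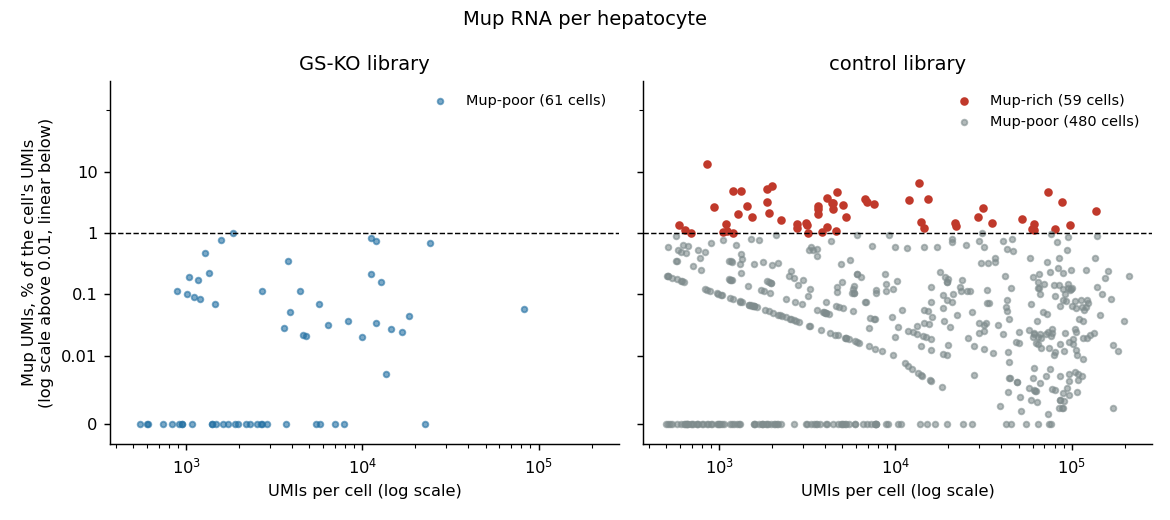
Share of each kept hepatocyte's UMIs that came from Mup genes against its total UMIs, with 1 point per cell, the GS-KO library left of the control library, log axes (linear under 0.01% Mup) and a dashed line at the limit of 1%. All 61 GS-KO hepatocytes lie under the line, the highest at 0.980%, and 59 control hepatocytes lie on or over it, the highest at 13.5%.

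The members were shallower than the control hepatocytes they were set against. Mup-rich cells had a median of 4101 UMIs (589 to 137543), against 2658 in GS-KO Mup-poor and 9938.5 in control Mup-poor cells. Summed over cells, the pools held 1037257 UMIs of Mup-rich, 387066 of GS-KO Mup-poor and 15693768 of control Mup-poor cells. The deepest Mup-rich cell held 13.3% of its pool and the deepest GS-KO Mup-poor cell 21.3% of its own. Mitochondrial genes gave a median of 2.66% of UMIs in Mup-rich, 4.35% in GS-KO Mup-poor and 4.60% in control Mup-poor cells, so the members were not the cells with most mitochondrial RNA. The libraries shared 1 barcode, and it was not among the members.

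Markers of hepatocytes that the definition did not use summed to 28180 CPM in Mup-rich, 14225 in GS-KO Mup-poor and 13043 in control Mup-poor cells. Both Mup-poor pools are hepatocytes by the definition, so folds against them do not check the label. Of 15 such markers 9 were at least 2-fold higher than in control Mup-poor cells and 0 were at least 2-fold lower. By the same limit 2.9% of all genes compared were higher and 11.8% lower. Serpina1c, Serpina3k, Ass1, Cps1 and Pck1 were among the higher markers, and Ass1, Cps1 and Pck1 are also genes of portal hepatocytes. Cyp2e1 and Hnf4a were lower, by less than 2-fold. RNA of other cell types was low. Macrophage markers summed to 350.0 CPM in Mup-rich, 212 in GS-KO Mup-poor and 316 in control Mup-poor cells. They include C1qa, C1qb and C1qc, which the definition limited, so part of that sum was held low by selection. Kupffer cell markers summed to 46.3 CPM in Mup-rich, 72.3 in GS-KO Mup-poor and 63.0 in control Mup-poor cells. Endothelial markers summed to 2.89 CPM in Mup-rich, 56.8 in GS-KO Mup-poor and 14.5 in control Mup-poor cells. In Mup-rich cells T or NK cell markers summed to 31.8 CPM against 3.19 in control Mup-poor cells, and monocyte markers to 30.9 against 2.68, so traces of these types were higher in the members. B cell markers summed to 3.86 CPM in Mup-rich against 15.4 in control Mup-poor cells. Stellate, cholangiocyte, red blood cell, platelet and neutrophil markers each summed to at most 10.6 CPM in Mup-rich cells. Over 0.5% of UMIs from markers of other lineages was seen in 2 of 59 Mup-rich and 45 of 480 control Mup-poor cells, and with those cells left out 177 genes were higher and 782 lower in Mup-rich cells.

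Mup RNA summed to 21683 CPM in Mup-rich cells, against 1408 in GS-KO Mup-poor and 1066 in control Mup-poor cells. Barcodes with the B cell genes Cd79a and Cd79b, which should hold no Mup transcripts of their own, gave 3.68 CPM in the GS-KO and 82.8 in the control library, as a measure of free RNA. Mup20 was the most counted gene, with 9935 CPM (9744 to 10129), and had a UMI in 52 of the 59 cells. Mup3 followed with 6357 CPM (6205 to 6512) and reached more cells, 57 of 59. Mup17 stood at 1796, Mup9 at 1142, Mup1 at 1078 and Mup21 at 596 CPM, but 73.1% of the Mup17 and 72.1% of the Mup9 UMIs came from 1 cell. By the median cell the order was different, with Mup3 at 10110 CPM, Mup20 at 2124 and Mup1 at 1575, since the deeper cells held more Mup20. Mup11, given as a marker of these cells, had 9 UMIs, and Mup4, Mup13, Mup19 and Mup22 had 0.

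The makeup of the Mup RNA differed between the pools. Mup20 gave 45.8% of Mup UMIs in Mup-rich, 31.4% in GS-KO Mup-poor and 51.0% in control Mup-poor cells. Mup3 gave 29.3% in Mup-rich, 60.7% in GS-KO Mup-poor and 14.9% in control Mup-poor cells. Mup1 gave 4.97% in Mup-rich, 1.83% in GS-KO Mup-poor and 21.5% in control Mup-poor cells. Mup17 gave 8.28% in Mup-rich, 0.734% in GS-KO Mup-poor and 4.38% in control Mup-poor cells, and Mup9 5.27% in Mup-rich, 2.57% in GS-KO Mup-poor and 1.07% in control Mup-poor cells. Mup3 thus ranked higher and Mup1 lower in the Mup-rich than in the control Mup-poor pool. A split among copies is only as good as the sequence that tells them apart. In the last 400 bases of the transcripts, all stretches of 91 bases were unique to the gene in Mup3, Mup20 and Mup21. The unique part was 70.6% in Mup17, 40.3% in Mup1 and 14.3% in Mup9. By sequence, UMIs of Mup3 and Mup20 can thus be told apart, and the Mup9 and Mup1 shares are uncertain. The shares also follow deep cells. In the Mup-rich pool 1 cell gave 2910 and another 2686 of the 10305 Mup20 UMIs. In the GS-KO Mup-poor pool 165 of the 545 Mup UMIs came from 1 cell.

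**Figure D2:**
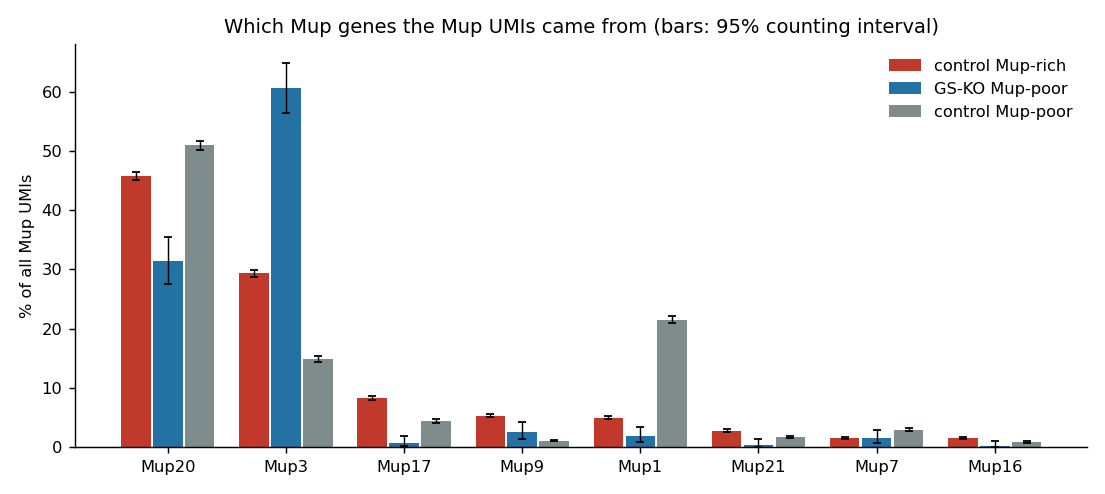
Share of the Mup UMIs given by each Mup gene in Mup-rich, GS-KO Mup-poor and control Mup-poor hepatocytes, with exact binomial 95% intervals. Mup20 and Mup3 together give most of the Mup RNA in every pool, and in control Mup-poor cells Mup1, at 21.5%, exceeds Mup3, at 14.9%.

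Individual members were mostly led by a particular Mup gene. Mup3 had most of the Mup UMIs in 40 cells, Mup20 in 16 and Mup17 in 3, and the leading gene had under 2 times the count of the next in 5 Mup3-led, 2 Mup20-led and 2 Mup17-led cells. The Mup20-led cells were deeper, with a median of 18189 UMIs against 3409.5 in Mup3-led and 1322 in Mup17-led cells. Of the 3 Mup17-led cells, 1 held 97.1% of their UMIs. Among control Mup-poor cells with at least 10 Mup UMIs, 99 of 162 were led by Mup20, 39 by Mup1 and 14 by Mup3. The leading gene is a readout of the same RNA, so differences between Mup3-led and Mup20-led cells are descriptions.

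Mup3-led and Mup20-led cells carried different zonal genes. Among portal genes, Ass1, which makes argininosuccinate in the urea cycle, stood at 3251 CPM in Mup3-led and 581 in Mup20-led cells, and Cps1, the entry enzyme of that cycle, at 631 CPM in Mup3-led and 132 in Mup20-led cells. Pck1, a control point of gluconeogenesis, stood at 786 CPM in Mup3-led and 89.3 in Mup20-led cells. Hamp, which encodes the iron hormone hepcidin, stood at 7823 CPM in Mup3-led and 788 in Mup20-led cells. Of the central genes Cyp2a5, Cyp1a2 and Glul stood in the opposite order. Cyp2a5, a P450 that oxidises coumarin and nicotine, stood at 253 CPM in Mup3-led and 6187 in Mup20-led cells, and Cyp1a2, which oxidises caffeine, at 338 CPM in Mup3-led and 3456 in Mup20-led cells. Glul stood at 137 CPM in Mup3-led and 581 in Mup20-led cells. Cyp2e1, the ethanol-oxidising P450, stood at 1781 CPM in Mup3-led and 1785 in Mup20-led cells, and Oat, another gene of that list, at 264 CPM in Mup3-led and 211 in Mup20-led cells. Genes of fetal liver and tumours were higher in the Mup20-led cells, with Afp at 10.6 CPM in Mup3-led and 244 in Mup20-led cells, Ly6d at 0 CPM in Mup3-led and 259 in Mup20-led cells and Cbr3 at 0 CPM in Mup3-led and 328 in Mup20-led cells. Each pool rests in part on its deepest cell. In the Mup20-led pool that cell had 23.6% of the UMIs and 202 of the 338 Glul UMIs, and without it Glul was at 306 CPM. In the Mup3-led pool it had 25.8% of the UMIs and 22 of the 52 Glul UMIs, and without it Glul was at 107 CPM. Of the 77 Cps1 UMIs in Mup20-led cells, 40 came from 1 cell and 31 from another. Of the 239 in Mup3-led cells, 99 came from 1 cell.

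Counted cell by cell, more UMIs came from the periportal than from the pericentral gene list in 21 of 59 Mup-rich cells (35.6%, 23.6 to 49.1), in 4 of 61 GS-KO Mup-poor cells (6.56%) and in 8 of 480 control Mup-poor cells (1.67%). Mup3-led cells gave 17 of 40 (42.5%) and Mup20-led cells 3 of 16 (18.8%). The median Mup-rich cell had 4389.6 CPM of periportal and 9585 CPM of pericentral RNA, so most members still held more pericentral RNA. The median GS-KO Mup-poor cell had 1099 CPM of periportal and 18663 CPM of pericentral RNA, and the median control Mup-poor cell 486 and 33441 CPM.

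**Figure D3:**
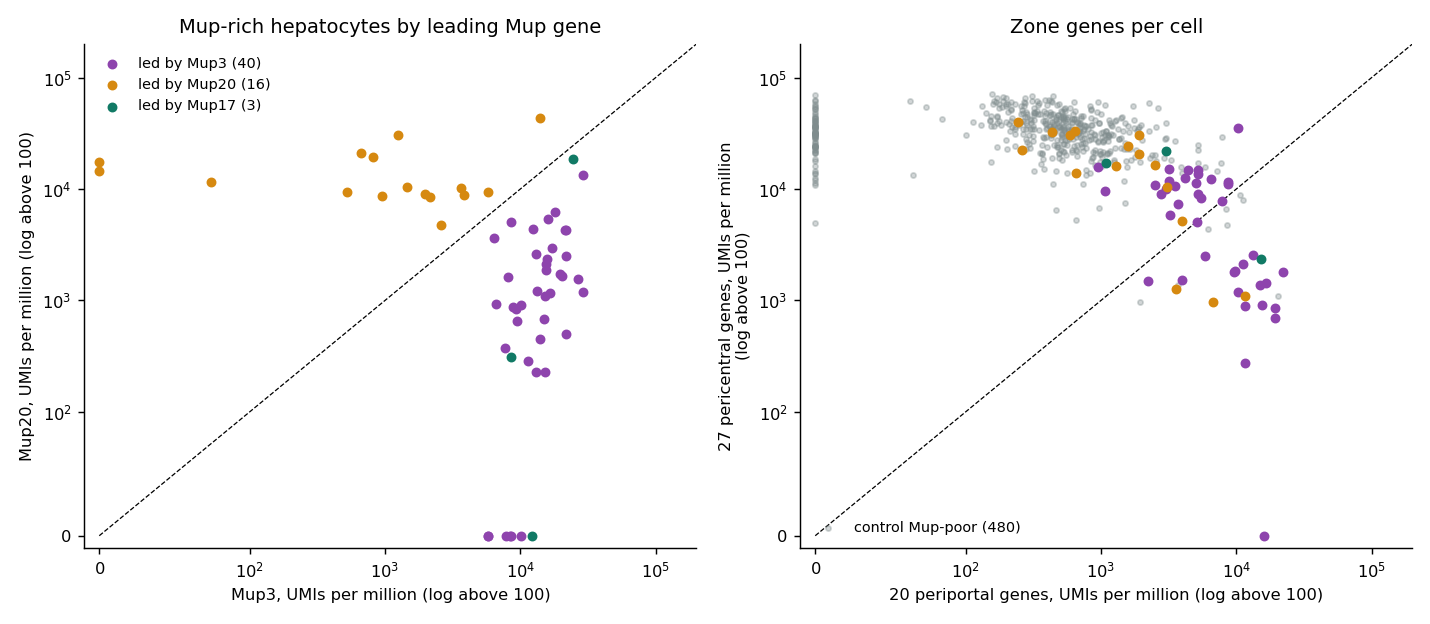
Left, CPM of Mup20 against CPM of Mup3 in each of the 59 Mup-rich hepatocytes, coloured by the leading Mup gene; right, CPM of 27 pericentral against 20 periportal genes in the same cells and in 480 control Mup-poor hepatocytes in grey, all on axes that are log above 100 with a dashed line of equal levels. In 21 Mup-rich cells, 17 of them led by Mup3, periportal RNA exceeds pericentral RNA, and this holds for 8 of the 480 Mup-poor cells.

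To compare all genes, UMIs were summed over the cells of each class, and a gene was called when its CPM differed by at least 2-fold between Mup-rich and control Mup-poor cells of the same library. Of 6340 genes with enough UMIs, 184 were higher (2.9%) and 750 lower (11.8%) in Mup-rich cells, and the log2 ratios of all of them had a median of −0.21. Counts of called list members below are to be set beside these shares. Both pools came from 1 mouse and 1 library, so no spread between mice lies behind a fold and no test was made. Folds are of Mup-rich over control Mup-poor cells unless another pool is named. In 26 of the 184 higher genes over 50% of the Mup-rich UMIs came from 1 cell. When ratios were scaled so that their median was 0, 288 genes were higher and 489 lower.

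Genes of portal hepatocytes were among the most different. Sds, which breaks down serine for gluconeogenesis, had 157 CPM in Mup-rich, 77.5 in GS-KO Mup-poor and 1.27 in control Mup-poor cells, a 123-fold difference (77.3 to 207) over control Mup-poor cells from 16 members with a UMI. Pck1 had 345 CPM in Mup-rich, 357 in GS-KO Mup-poor and 3.63 in control Mup-poor cells, 95.03-fold higher (71.7 to 128). Cps1 had 309 CPM in Mup-rich, 82.7 in GS-KO Mup-poor and 5.48 in control Mup-poor cells, 56.5-fold higher (44.4 to 72.5). Cyp2f2, a P450 of portal hepatocytes, had 225 CPM in Mup-rich, 12.9 in GS-KO Mup-poor and 4.14 in control Mup-poor cells, 54.2-fold higher (41.0 to 72.5), with 42.1% of its Mup-rich UMIs in 1 cell. Agxt, which clears glyoxylate, had 176 CPM in Mup-rich, 98.2 in GS-KO Mup-poor and 5.54 in control Mup-poor cells, 31.8-fold higher. Got1, the cytosolic aspartate transaminase, had 109 CPM in Mup-rich, 111 in GS-KO Mup-poor and 3.19 in control Mup-poor cells, 34.2-fold higher. The GS-KO Mup-poor levels of Sds, Pck1 and Cps1 rest largely on the 7 GS-KO cells with 0.25 to 1% Mup RNA, which held all 30 Sds UMIs, 108 of 138 Pck1 UMIs and 29 of 32 Cps1 UMIs, and the other 54 cells had 0 CPM of Sds and 90.6 CPM of Pck1. The folds depend on how cells are weighted, since summed UMIs follow the deep cells. As means over cells the log2 ratio was 5.89 for Sds (6.88 summed), 3.76 for Pck1 (6.55 summed), 2.69 for Cps1 (5.80 summed), 4.25 for Cyp2f2 (5.74 summed), 3.58 for Agxt (4.98 summed) and 3.87 for Got1 (5.07 summed).

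Of the 20 periportal genes 13 had enough UMIs, and 10 of these were higher and 0 lower, and their log2 ratios had a median of 4.19. A low member could reach the minimum only through the class where it was high, so the list was also read with no minimum: all 20 members had a ratio above 1, 17 were at least 2-fold higher, and the median was 3.26. Ass1 had 1535 CPM in Mup-rich, 1385 in GS-KO Mup-poor and 84.3 in control Mup-poor cells, 18.2-fold higher (16.9 to 19.6), and was found in 55 of 59 members. Arg1, which splits arginine into urea and ornithine, had 326 CPM in Mup-rich, 375 in GS-KO Mup-poor and 12.6 in control Mup-poor cells. Pigr, the receptor that carries immunoglobulin A into bile, had 319 CPM in Mup-rich, 77.5 in GS-KO Mup-poor and 15.6 in control Mup-poor cells. Hal, which breaks down histidine, and Gls2, the liver glutaminase, were below the minimum, Hal with 78.1 CPM in Mup-rich against 0.828 in control Mup-poor cells and Gls2 with 54.0 CPM in Mup-rich against 0.382 in control Mup-poor cells. Within the urea cycle the steps differed, with Otc, the mitochondrial step that makes citrulline, at 303 CPM in Mup-rich, 326 in GS-KO Mup-poor and 103 in control Mup-poor cells, 2.94-fold higher. Asl, which releases arginine, had 249.7 CPM in Mup-rich, 258 in GS-KO Mup-poor and 128 in control Mup-poor cells, 1.96-fold higher and so not called. The gluconeogenic enzymes Fbp1 and G6pc were also higher, Fbp1 with 486 CPM in Mup-rich, 429 in GS-KO Mup-poor and 57.3 in control Mup-poor cells and G6pc with 112 CPM in Mup-rich, 64.6 in GS-KO Mup-poor and 20.8 in control Mup-poor cells. Tat, which breaks down tyrosine, had 283 CPM in Mup-rich, 176 in GS-KO Mup-poor and 52.1 in control Mup-poor cells. Gys2, the liver glycogen synthase, ran the other way at 30.9 CPM in Mup-rich, 80.1 in GS-KO Mup-poor and 109 in control Mup-poor cells, 3.53-fold lower.

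Portal genes were also found in more Mup-rich cells at equal depth. After each cell was thinned to 1000 UMIs, which left out 5 Mup-rich, 9 GS-KO Mup-poor and 55 control Mup-poor cells, Ass1 was found in 68.5% of Mup-rich, 44.2% of GS-KO Mup-poor and 51 of 425 control Mup-poor cells. The B cell gene barcodes of the control library, with a median of 3713 UMIs, gave 2.45% for Ass1. Before thinning the Ass1 shares were 93.2% in Mup-rich, 77.0% in GS-KO Mup-poor and 51.2% in control Mup-poor cells. Cps1 was found in 16.7% of thinned Mup-rich, 3.85% of GS-KO Mup-poor and 2.12% of control Mup-poor cells and in 0.409% of the control B cell gene barcodes. Pck1 was found in 29.6% of thinned Mup-rich, 13.5% of GS-KO Mup-poor and 1.18% of control Mup-poor cells, and in 0 of the thinned B cell gene barcodes of the control library. Before thinning, Cps1 was found in 44.1% of Mup-rich, 6.56% of GS-KO Mup-poor and 5.62% of control Mup-poor cells, and Pck1 in 31 of 59 Mup-rich, 13 of 61 GS-KO Mup-poor and 23 of 480 control Mup-poor cells.

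Pericentral genes were lower in Mup-rich cells. Of 27 with enough UMIs 18 were lower and 0 higher, 25 of the 27 ratios lay below 1, and the log2 ratios had a median of −1.56. Glul (chr1:153899944-153909723 on GRCm38, plus strand) had 400.1 CPM in Mup-rich, 145 in GS-KO Mup-poor and 3456 in control Mup-poor cells, 8.64-fold lower (7.84 to 9.54) in Mup-rich than in control Mup-poor cells. It had a UMI in 27 of 59 members, and 48.7% of its UMIs were in the deepest cell, without which its level was 237 CPM. The median control Mup-poor cell had 2783 CPM of Glul, and the median Mup-rich cell had 0. After thinning, Glul was found in 16.7% of Mup-rich, 23.1% of GS-KO Mup-poor and 81.2% of control Mup-poor cells, beside 44 of 489 control B cell gene barcodes. Before thinning the shares were 45.8% in Mup-rich, 41.0% in GS-KO Mup-poor and 91.9% in control Mup-poor cells, beside 26.1% of the control B cell gene barcodes. The intervals of Mup-rich cells (7.92 to 29.3%) and GS-KO Mup-poor cells (12.5 to 36.8%) overlapped, but free RNA differed between the libraries. In the GS-KO library 2 of 121 thinned B cell gene barcodes had Glul (1.65%, 0.201 to 5.84), under the interval of its Mup-poor cells. The interval of Mup-rich cells reached down to the level of the control B cell gene barcodes. By detection, Glul in most members could thus not be told from free RNA at this depth. As a summed level, Glul had 116 CPM in the control and 33.1 CPM in the GS-KO B cell gene barcodes. Mup3-led cells had 137 CPM (102 to 180), or 107 without their deepest cell. Mup20-led cells had 581 CPM (520 to 646), or 306 without their deepest cell.

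The P450 genes of the central zone were lower by a smaller factor. Cyp2a5 had 3591 CPM in Mup-rich, 3731 in GS-KO Mup-poor and 12592 in control Mup-poor cells, 3.51-fold lower (3.39 to 3.62). Cyp1a2 had 2154 CPM in Mup-rich, 2183 in GS-KO Mup-poor and 7021 in control Mup-poor cells, 3.26-fold lower. Cyp2e1 had 1985 CPM in Mup-rich, 1780.1 in GS-KO Mup-poor and 2955 in control Mup-poor cells, 1.49-fold lower and not called. Slc1a2, a glutamate transporter, had 133 CPM in Mup-rich, 229.9 in GS-KO Mup-poor and 854 in control Mup-poor cells. Oat, which turns ornithine toward glutamate, had 377 CPM in Mup-rich, 785 in GS-KO Mup-poor and 1203 in control Mup-poor cells. Por, the P450 reductase, had 83.9 CPM in Mup-rich, 212 in GS-KO Mup-poor and 441 in control Mup-poor cells. In these the GS-KO Mup-poor pool lay between the others. Cyp7a1, the rate-limiting enzyme of bile acid synthesis, had 10.6 CPM in Mup-rich, 64.6 in GS-KO Mup-poor and 86.7 in control Mup-poor cells, 8.17-fold lower.

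β-catenin target genes were lower as well. Of 14 listed, 11 had enough UMIs and all 11 were lower, at a median of −1.92 on the log2 scale, and with no minimum 13 had a UMI and 11 were at least 2-fold lower. Nkd1 and Axin2, which feed back on Wnt signalling, were among them, Nkd1 with 3.86 CPM in Mup-rich, 72.3 in GS-KO Mup-poor and 89.8 in control Mup-poor cells and Axin2 with 6.75 CPM in Mup-rich, 15.5 in GS-KO Mup-poor and 37.0 in control Mup-poor cells. Notum, which inactivates Wnt ligands, had 18.3 CPM in Mup-rich, 33.6 in GS-KO Mup-poor and 69.3 in control Mup-poor cells. Tbx3, a transcription factor, had 24.1 CPM in Mup-rich, 33.6 in GS-KO Mup-poor and 71.3 in control Mup-poor cells, and Ccnd1, a cyclin, had 34.7 CPM in Mup-rich, 106 in GS-KO Mup-poor and 185 in control Mup-poor cells. Lect2, a secreted chemotactic factor, had 343 CPM in Mup-rich, 229.9 in GS-KO Mup-poor and 724 in control Mup-poor cells, 2.11-fold lower. Lgr5, an R-spondin receptor, had 2 UMIs in Mup-rich cells, a ratio of 0.0704 (0.0085 to 0.256). Several lists share members with these genes, Glul among them.

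Named genes among the lower ones included Wnt4, a Wnt ligand, with 1.93 CPM in Mup-rich, 186 in GS-KO Mup-poor and 170.2 in control Mup-poor cells. It had 2 UMIs, both in 1 Mup-rich cell, a ratio of 0.0113 (0.00137 to 0.0410). As means over cells the log2 ratio of Wnt4 was −2.91 (−6.42 summed), that of Nkd1 −2.997 (−4.52 summed), that of Maoa −3.51 (−2.84 summed) and that of Mal −5.22 (−3.32 summed). Snhg11, a long noncoding RNA host of small nucleolar RNAs, and Sult2a6, a sulphotransferase, had 0 UMIs in Mup-rich cells, against 47.7 CPM of Snhg11 and 41.5 CPM of Sult2a6 in control Mup-poor cells. By a floor of 3 counts over the pool Snhg11 was at least 16.5-fold lower and Sult2a6 at least 14.4-fold lower. Maoa, which oxidises monoamines, had 96.4 CPM in Mup-rich, 633 in GS-KO Mup-poor and 693 in control Mup-poor cells, 7.19-fold lower. Nkd1 was 23.3-fold lower (9.08 to 85.6). Ecm1, a matrix protein, had 5.78 CPM in Mup-rich, 59.4 in GS-KO Mup-poor and 72.6 in control Mup-poor cells, 12.5-fold lower. Pcp4l1 had 11.6 CPM in Mup-rich, 43.9 in GS-KO Mup-poor and 138 in control Mup-poor cells, 11.9-fold lower, and Mal, a membrane-sorting protein, 11.6 CPM in Mup-rich, 33.6 in GS-KO Mup-poor and 116 in control Mup-poor cells, 10.1-fold lower. Olfm1 had 1 UMI in Mup-rich cells, a ratio of 0.0163 (0.000411 to 0.0908), Meig1 had 1, a ratio of 0.0301 (0.00076 to 0.168), and Sbspon had 2, a ratio of 0.0474 (0.00573 to 0.172).

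**Figure D4:**
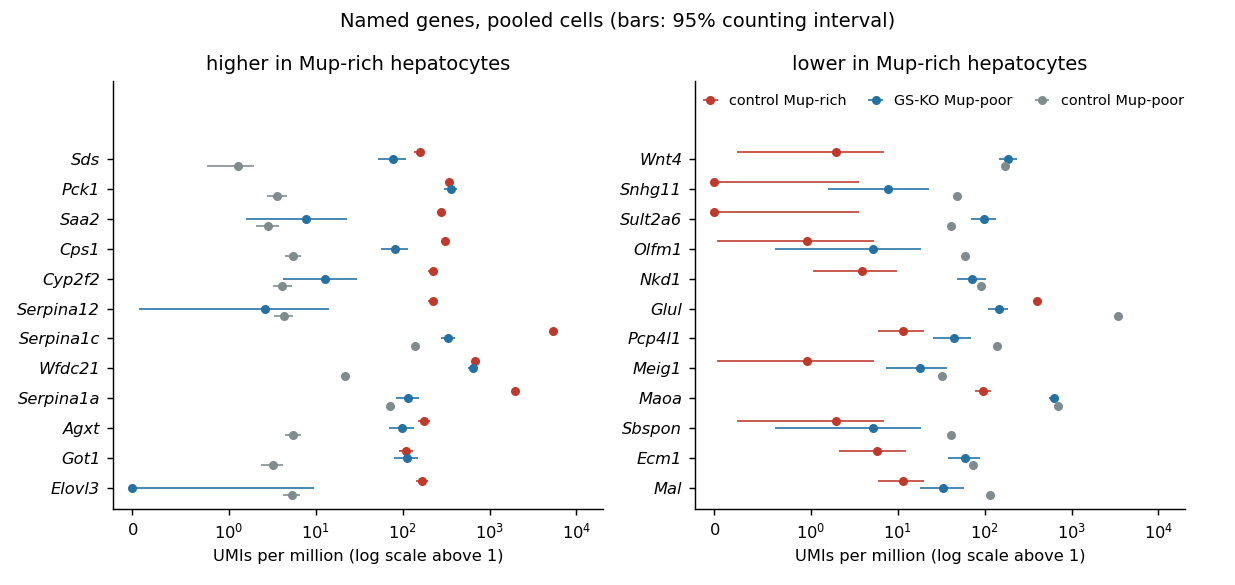
CPM of 12 higher and 12 lower genes in Mup-rich, GS-KO Mup-poor and control Mup-poor hepatocytes, on an axis that is log above 1, with exact Poisson 95% intervals. Mup-rich points stand above control Mup-poor points for Sds, Pck1 and Cps1 and below them for Glul, Nkd1 and Wnt4.

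Several serpins, secreted protease inhibitors that were named for their difference, had higher levels in the members than in both Mup-poor pools. Serpina1c, a copy of α1-antitrypsin, had 5392 CPM in Mup-rich, 333 in GS-KO Mup-poor and 138 in control Mup-poor cells, 39.2-fold higher (37.3 to 41.2), and had a UMI in 55 of 59 members. As means over cells its log2 ratio was 4.24 (5.29 summed). Serpina1a had 1974 CPM in Mup-rich, 116 in GS-KO Mup-poor and 72.1 in control Mup-poor cells, 27.4-fold higher, and Serpina1d had 599.7 CPM in Mup-rich, 33.6 in GS-KO Mup-poor and 28.6 in control Mup-poor cells. Serpina1b had 3474 CPM in Mup-rich, 617 in GS-KO Mup-poor and 463 in control Mup-poor cells, with a UMI in all 59 members. These are near-identical copies, so the split of UMIs among them is uncertain. Serpina3k had 2966 CPM in Mup-rich, 483 in GS-KO Mup-poor and 413 in control Mup-poor cells, 7.19-fold higher. Serpina12, the adipokine vaspin, had 225 CPM in Mup-rich, 2.58 in GS-KO Mup-poor and 4.27 in control Mup-poor cells, 52.6-fold higher. Wfdc21, a small secreted whey acidic protein, had 674 CPM in Mup-rich, 646 in GS-KO Mup-poor and 21.5 in control Mup-poor cells, 31.3-fold higher, and so was not set apart from the GS-KO pool. The median Mup-rich cell had 7455 CPM of Serpina1c, and the median cell of each Mup-poor pool had 0.

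The other plasma proteins differed less. Of 34 in that list 32 had enough UMIs, 9 were higher and 0 lower, and the median was 0.29. Hpx, the haem carrier, had 3735 CPM in Mup-rich, 1196 in GS-KO Mup-poor and 1432 in control Mup-poor cells. Azgp1 had 641 CPM in Mup-rich against 171 in control Mup-poor cells, and Kng1, a kininogen, had 953 CPM in Mup-rich against 390.0 in control Mup-poor cells. In the acute phase list 11 of 16 with enough UMIs were higher and 2 lower, with a median of 1.49, or 1.23 over all 21 members with no minimum. Hamp had 4109.9 CPM in Mup-rich, 1183 in GS-KO Mup-poor and 333 in control Mup-poor cells, 12.3-fold higher (11.9 to 12.9), with a UMI in 48 members. Hp, the haemoglobin carrier, had 2551 CPM in Mup-rich, 850.0 in GS-KO Mup-poor and 772 in control Mup-poor cells. Of the fibrinogen chains Fgg was 3.00-fold, Fgb 2.21-fold and Fga 2.35-fold higher. Orm1, a plasma carrier of basic drugs, had 1010.4 CPM in Mup-rich, 212 in GS-KO Mup-poor and 363 in control Mup-poor cells, 2.78-fold higher. Saa2, a serum amyloid, had 277 CPM in Mup-rich, 7.75 in GS-KO Mup-poor and 2.80 in control Mup-poor cells but a UMI in 9 members, with 42.9% in 1 cell, and 54.1% of Saa1 lay in 1 cell. Orm2 and Socs3, a feedback inhibitor of cytokine signalling, were lower, Orm2 at 24.1 CPM in Mup-rich, 5.17 in GS-KO Mup-poor and 59.5 in control Mup-poor cells and Socs3 at 3.86 CPM in Mup-rich, 7.75 in GS-KO Mup-poor and 11.5 in control Mup-poor cells. The complement list had 3 of 17 higher, all of the membrane attack complex. C8a had 157 CPM in Mup-rich, 36.2 in GS-KO Mup-poor and 10.3 in control Mup-poor cells, C9 had 171 CPM in Mup-rich, 25.8 in GS-KO Mup-poor and 7.14 in control Mup-poor cells, and C6 had 153 CPM in Mup-rich, 43.9 in GS-KO Mup-poor and 69.8 in control Mup-poor cells.

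Of 20 lipid synthesis genes 10 were higher and 0 lower, with a median of 1.08, which was 0.43 for Mup-rich from 2% against Mup-poor under 0.5% and 0.39 without the Mup20-led cells. Scd1, the stearoyl-CoA desaturase, had 2828 CPM in Mup-rich, 548 in GS-KO Mup-poor and 211 in control Mup-poor cells, 13.4-fold higher, with a UMI in 50 members and 38.2% of its UMIs in 1 cell. Thrsp, which promotes fatty acid synthesis, had 187 CPM in Mup-rich, 64.6 in GS-KO Mup-poor and 21.4 in control Mup-poor cells. Acly, which makes cytosolic acetyl-CoA, had 95.4 CPM in Mup-rich, 25.8 in GS-KO Mup-poor and 15.1 in control Mup-poor cells, and Fasn, the fatty acid synthase, 159 CPM in Mup-rich, 51.7 in GS-KO Mup-poor and 61.7 in control Mup-poor cells. Elovl3, a fatty acid elongase, had 167 CPM in Mup-rich, 0 in GS-KO Mup-poor and 5.29 in control Mup-poor cells and a UMI in 21 members. Of the sterol genes Fdps had 488 CPM in Mup-rich, 331 in GS-KO Mup-poor and 148 in control Mup-poor cells and Idi1 177 CPM in Mup-rich, 202 in GS-KO Mup-poor and 50.5 in control Mup-poor cells. Of 13 apolipoprotein genes 3 were higher, namely Apoa4 at 296 CPM in Mup-rich, 599 in GS-KO Mup-poor and 38.7 in control Mup-poor cells, Apoa5 at 415 CPM in Mup-rich, 178 in GS-KO Mup-poor and 100.4 in control Mup-poor cells and Apoc3 at 8248 CPM in Mup-rich, 5374 in GS-KO Mup-poor and 3173 in control Mup-poor cells. Of 18 fatty acid oxidation genes 0 were higher and 2 lower, which is near the 2.9% higher and 11.8% lower of all genes compared.

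Genes that share the growth hormone control of Mups differed in both directions. Of 10 male-biased genes with enough UMIs 4 were higher and 1 lower, with a median of 0.48. With no minimum 8 of 14 were at least 2-fold higher and 1 lower, with a median of 1.44, and after thinning the median was −0.41. Slco1a1, an organic anion transporter, had 198 CPM in Mup-rich, 31.0 in GS-KO Mup-poor and 36.3 in control Mup-poor cells, and Nudt7, a peroxisomal coenzyme A hydrolase, had 299 CPM in Mup-rich, 82.7 in GS-KO Mup-poor and 88.8 in control Mup-poor cells. Cyp4a12b, a fatty acid hydroxylase, had 8.68 CPM in Mup-rich, 5.17 in GS-KO Mup-poor and 46.1 in control Mup-poor cells, 5.32-fold lower. Of 17 female-biased genes only 2 had enough UMIs, and 2 were lower. With no minimum 11 of them had a UMI, of which 7 were at least 2-fold lower and 3 at least 2-fold higher. Igf1, the hormone that the liver secretes on growth hormone, had 652 CPM in Mup-rich, 295 in GS-KO Mup-poor and 83.6 in control Mup-poor cells, 7.80-fold higher (7.09 to 8.56), with a UMI in 48 members. Ghr, the growth hormone receptor, had 248 CPM in Mup-rich, 85.3 in GS-KO Mup-poor and 163 in control Mup-poor cells and was not called at 1.52-fold. Bcl6, a repressor that opposes STAT5, had 3.86 CPM in Mup-rich, 2.58 in GS-KO Mup-poor and 10.3 in control Mup-poor cells, 2.66-fold lower. Within the members, Elovl3 stood at 379.9 CPM in Mup3-led and 3.44 in Mup20-led cells, Igf1 at 1010.5 CPM in Mup3-led and 402 in Mup20-led cells, and Scd1 at 5820.4 CPM in Mup3-led and 362 in Mup20-led cells.

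Detoxification genes were mixed. Of 24 P450 genes 3 were higher and 5 lower, beside 2.9% and 11.8% of all genes compared, and the median was −0.26. Cyp2a12, a steroid hydroxylase, had 199 CPM in Mup-rich, 46.5 in GS-KO Mup-poor and 12.04 in control Mup-poor cells, 16.5-fold higher, and Cyp2c39 had 126 CPM in Mup-rich, 605 in GS-KO Mup-poor and 417 in control Mup-poor cells, 3.30-fold lower. Cyp3a11, the main drug-oxidising P450, had 1596 CPM in Mup-rich, 1170.3 in GS-KO Mup-poor and 1012 in control Mup-poor cells and was not called. Glutathione S-transferases were lower in 6 of 19 and higher in 0, with Gstm3 at 1355 CPM in Mup-rich, 3614 in GS-KO Mup-poor and 3145 in control Mup-poor cells and Gsta4 at 964 CPM in Mup-rich, 1798 in GS-KO Mup-poor and 2415 in control Mup-poor cells. Of the bile acid list 1 of 12 was higher, the uptake transporter Slc10a1 at 194 CPM in Mup-rich, 171 in GS-KO Mup-poor and 42.7 in control Mup-poor cells, and 4 were lower. The lower ones included the export pumps Abcb11 at 105 CPM in Mup-rich, 207 in GS-KO Mup-poor and 256 in control Mup-poor cells and Abcc2 at 119 CPM in Mup-rich, 173 in GS-KO Mup-poor and 318 in control Mup-poor cells. Slc7a11, the cystine transporter, had 47.2 CPM in Mup-rich, 149.8 in GS-KO Mup-poor and 321 in control Mup-poor cells. The metallothionein Mt1 had 121 CPM in Mup-rich, 979 in GS-KO Mup-poor and 447 in control Mup-poor cells, and Mt2 had 5.78 CPM in Mup-rich, 103 in GS-KO Mup-poor and 40.6 in control Mup-poor cells.

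Of 17 fetal and tumour genes 5 had enough UMIs and all 5 were lower, with a median of −1.28, beside 11.8% of all genes compared. With no minimum 13 had a UMI, of which 9 were at least 2-fold lower and 2 at least 2-fold higher, with a median of −1.26. Summed over its genes, the list stood at 21.1 CPM in Mup3-led and 855 in Mup20-led cells, against 1125 in control Mup-poor cells. Afp, the fetal albumin, had 141 CPM in Mup-rich, 344 in GS-KO Mup-poor and 342 in control Mup-poor cells. Ly6d, a surface protein, had 148 CPM in Mup-rich, 369 in GS-KO Mup-poor and 354 in control Mup-poor cells, and Cbr3, a carbonyl reductase, had 184 CPM in Mup-rich, 328 in GS-KO Mup-poor and 380.4 in control Mup-poor cells. Hepatocyte transcription factors gave 1 higher of 14, beside 2.9% of all genes compared. It was Foxa3, at 39.5 CPM in Mup-rich, 20.7 in GS-KO Mup-poor and 19.5 in control Mup-poor cells. Hnf4a had 85.8 CPM in Mup-rich, 134 in GS-KO Mup-poor and 168 in control Mup-poor cells, 1.95-fold lower and so not called. Endoplasmic reticulum chaperone genes gave 0 of 18 in either direction.

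In the interferon list 6 of 11 were higher and 1 lower, with a median of 1.11, but single cells carried much of this RNA. Rsad2, an antiviral enzyme, had 174 CPM in Mup-rich, 0 in GS-KO Mup-poor and 1.02 in control Mup-poor cells, with 99.4% of its Mup-rich UMIs in 1 of the 2 members that had any. Ifit1 had 189 CPM in Mup-rich, 0 in GS-KO Mup-poor and 1.40 in control Mup-poor cells, with 98.0% in 1 cell. For Ifi27l2a 92.7% and for Isg15 60.2% of the UMIs lay in 1 cell. Iigp1, an interferon-induced GTPase, was spread over 39 members at 344 CPM in Mup-rich, 199 in GS-KO Mup-poor and 159 in control Mup-poor cells, 2.16-fold higher. Of the MHC class I list 3 of 10 were higher and 1 lower, beside 2.9% and 11.8% of all genes compared. H2-Q10, a class I molecule that the liver secretes, had 931 CPM in Mup-rich, 545 in GS-KO Mup-poor and 312 in control Mup-poor cells.

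**Figure D5:**
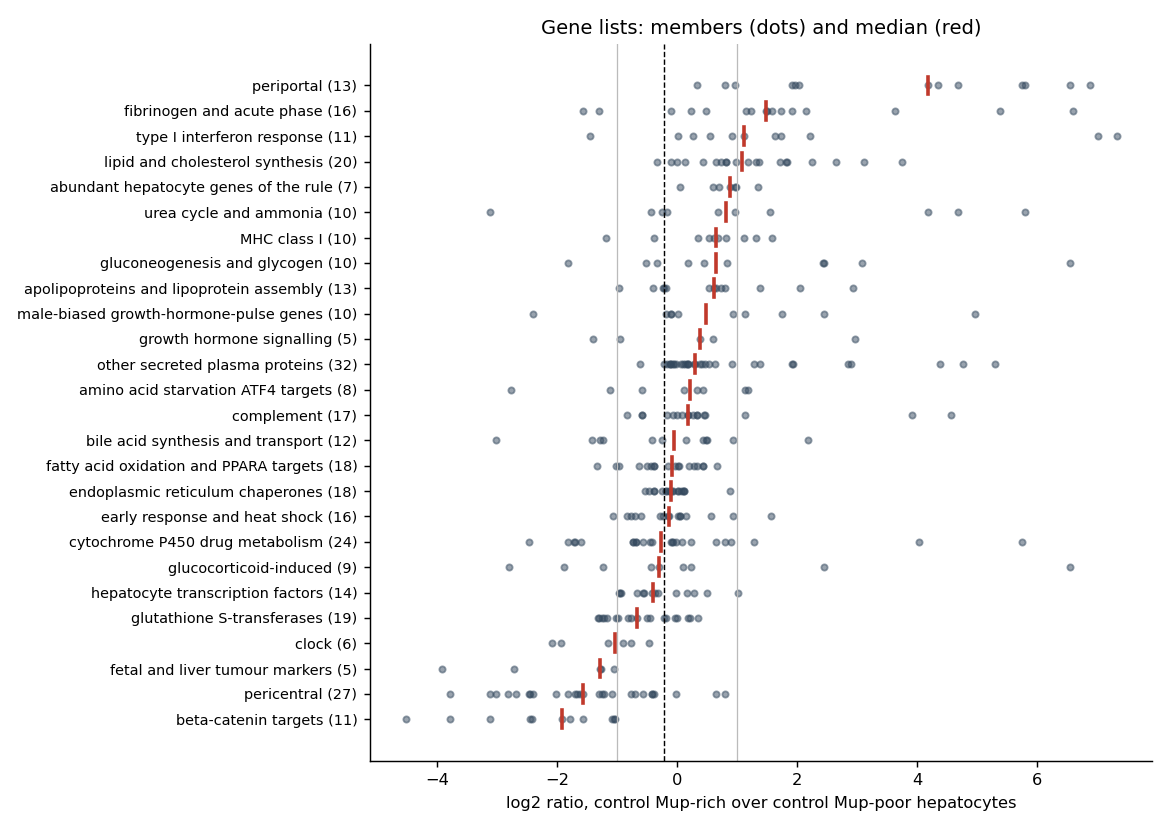
Median log2 ratio of control Mup-rich over control Mup-poor CPM for each gene list, with 1 dot per member with enough UMIs, a red bar at the list's median, a dashed line at the all-gene median of −0.21 and grey lines at 2-fold. Among the lists shown, which leave out the Mup genes, periportal genes lie farthest to the higher side at 4.19, and pericentral and β-catenin target genes lie to the lower side at −1.56 and −1.92.

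Across bands of the Mup share in the control library the zonal genes did not follow Mup RNA evenly. Glul stood at 3674 CPM in the 409 cells under 0.25%, 1724 in the 71 at 0.25 to 1%, 223 in the 30 at 1 to 2%, 743 in the 21 at 2 to 4% and 264 in the 7 at 4 to 8%. Of the 257 Glul UMIs at 2 to 4%, 202 came from 1 deep Mup20-led cell and 49 from another. At 4 to 8%, 24 of the 26 Glul UMIs came from 1 Mup17-led cell. Serpina1c had 45.7, 866, 4465, 6284 and 7806 CPM over the same bands, and Ass1 64.8, 239, 1232, 2125 and 1238. Serpina1c was higher in each next band, while Glul and Ass1 were uneven above 1%. Cps1 was at 0.861, 42.1, 454, 121 and 102 CPM, and Alb, which helped choose the hepatocytes, at 7497, 12075, 25278, 11415 and 21621. The bands are set by the value that chose the members, so the trend is a description.

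The GS-KO library held no member, but the 7 hepatocytes with 0.25 to 1% Mup RNA were its nearest. They had 55772 UMIs, 43.3% of them in 1 cell, and 5 were led by Mup3 and 1 by Mup20. Set against the 54 GS-KO cells under 0.25%, they had Ass1 at 4016 against 942 CPM, Cps1 at 520.0 against 9.06, Pck1 at 1936 against 90.6 and Hamp at 7925 against 48.3. Cyp2a5 was at 341 against 4301 CPM, Ly6d at 0 against 432, and Glul at 0 against 169. Serpina1c stood at 2169.6 CPM in them, under the level of the control Mup3-led and Mup20-led cells, Cyp2f2 at 53.8, Igf1 at 1201 and Scd1 at 1936, and Elovl3 had 0 UMIs. The cells were not alike: periportal UMIs outnumbered pericentral ones in 4 of the 7, and the deepest cell had 51 periportal and 479 pericentral UMIs, with 2 of Ass1 and 1 of Hamp. With 7 cells of 1 mouse this is a description, and no comparison of Mup-rich cells between GS-KO and control livers could be made.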

How the data were processed

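Per the labels, 2 single-cell 3′ libraries were made, 1 mouse per group. The authors deposited raw UMI counts per gene and barcode, made with Cell Ranger 3.1.0 per the file headers, on mm10 per the submitters' processing notes; the matrices list 32285 genes. No barcode filter beyond the definition was applied, and doublets were kept in the main values. UMIs were summed per class and scaled to CPM, with exact Poisson 95% intervals. CPM ratios carry a conditional binomial 95% interval. Genes needed 50 UMIs over both pools and 10 expected in the shallower one. Log2 ratios used a prior count of 0.5, and a gene at 0 was set against 3 counts. Scripts were checked on simulated counts. The comparisons planned within GS-KO hepatocytes and between Mup-rich cells of the mice had no members and are not reported. The members, gene lists and tests were chosen with earlier results of these data known, and many lists came from an earlier analysis of the same files, so none is independent evidence.

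Genes were named by a rule: the 12 higher and 12 lower genes called at 2-fold, ranked by the interval bound nearest 1, without genes of the definition, mitochondrial, ribosomal, haemoglobin and immunoglobulin genes and genes with over 50% of UMIs in 1 cell. Glul, Mup genes, and from each list the most counted and the called members were named besides. Genes named in the leading-gene, band and detection paragraphs follow lists of chosen genes, and B cell gene barcodes had at least 1 UMI each of Cd79a and Cd79b and under 2% hepatocyte gene UMIs. Thinning used seed 1. GENCODE M21 on GRCm38 held 32235 of the gene identifiers. Alternatives changed the thresholds, the scaling, the minimum, the fold, the mitochondrial limit, doublets and depth. Figures were drawn with matplotlib 3.10.9 and promoters aligned with Biopython 1.88, doublets were called with Scrublet in scanpy 1.11.5 (scikit-image 0.26.0), and the rest used scipy 1.17.1, numpy 2.4.6 and pandas 2.3.3 under Python 3.11.15.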

Additional observations from a re-analysis of the deposited data

How the results depend on the processing

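No paired analysis was possible because each group was 1 library. For the same reason no replicate could be left out, and the planned GS-KO comparisons were not run since that library held 0 members. Log2 ratios of single genes were followed only for the 12 higher and 12 lower named genes. None of those changed direction under an alternative in which it had enough UMIs, but some alternatives left genes out. With Mup-rich from 2% against Mup-poor under 0.5%, only Serpina1c, Wfdc21 and Serpina1a of the 12 higher genes had enough. Sds, Pck1, Cps1, Cyp2f2, Agxt and Got1 were thus not followed in the cells richest in Mup RNA. A gene low in Mup-poor cells passes the minimum mainly through the Mup-rich pool, so its direction had little room to change. For the other called genes direction was not followed. The periportal, pericentral, β-catenin target and acute phase medians kept their direction. But 8 of the list medians, each at most 0.48 in size, changed sign under at least 1 alternative. A Mup limit of 0.5% gave shares of 8.20% in GS-KO and 18.0% in control hepatocytes, a limit of 2% gave 5.38% in the control, and a hepatocyte limit of 5% gave 14.4%. The mitochondrial limit of 80%, chosen after seeing the data, and thinning moved the shares by less than their intervals. Scrublet called 7 GS-KO (1.06%) and 24 control (0.733%) barcodes, 0 of them Mup-rich.

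Against 184 higher and 750 lower genes, Mup-rich from 2% against Mup-poor under 0.5% gave 114 higher, means over cells gave 485 and 1822, scaling by the median ratio 288 and 489, thinning 46 and 121 of 765, no minimum 1536 and 5505 of 15488, a minimum of 200 UMIs 84 and 242, a fold of 1.5 418 and 1685, and a fold of 3 107 and 260. Leaving out the deepest Mup-rich cell or the Mup20-led cells was chosen after seeing the data. Without the deepest cell 167 of the higher and 584 of the lower genes were called again, and without the Mup20-led cells 103 and 344.

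The periportal median was 1.03 with Mup-rich from 2% against under 0.5%, 5.06 at a mitochondrial limit of 10%, 4.32 without cells over 0.5% of other lineages' markers, 2.69 as means over cells, 4.30 with Mup, mitochondrial, ribosomal and haemoglobin UMIs out of the total, 4.40 scaled by the median, 1.12 thinned, 3.26 with no minimum, 0.97 at a minimum of 200, 4.36 without the deepest cell and 3.44 without Mup20-led cells. The pericentral median was −1.99 thinned, −1.78 without the deepest cell and −2.12 without Mup20-led cells, where the β-catenin target median was −3.42. The acute phase median was 0.95 with Mup-rich from 2% against under 0.5%, 1.77 at a mitochondrial limit of 10%, 1.70 scaled by the median, 1.75 thinned, 1.23 with no minimum and 1.66 without the deepest cell. Fewer members passed under thinning and the higher minimum, and the cause of the other moves was not tested. Complement had 0.18 but −0.20 with Mup-rich from 2% against under 0.5% and −0.13 thinned, fatty acid oxidation −0.088 but 0.11 as means over cells, and male-biased genes 0.48 but −0.41 thinned. Of the named genes, a mitochondrial limit of 10% gave Cyp2f2 6.93, Elovl3 5.90 and Maoa −4.05, Serpina1c was 6.405 with Mup-rich from 2% against under 0.5%, and without Mup20-led cells Pck1 was 7.51 and Maoa −5.71 (log2). The log2 ratio of Glul was −3.11, and −3.87 without the deepest cell. Genes with under 10 expected UMIs in the shallower pool could not be called.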
